A study of Mus musculus with 49 samples.

Results

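The genes Meis1, Meis2, Meis3, Pbx2, Pbx3 and Pknox1 encode homeodomain proteins of the TALE class, which bind DNA together with HOX proteins. They were chosen by name, as the rows of the deposited expression table whose Ensembl identifier carries 1 of these 6 symbols, and all 6 were found among its 38253 genes.

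RNA sequencing covered 49 samples from female C57BL/6J mice, labelled as wild type and 6 to 12 weeks of age. The 30 normal samples were sorted bone marrow cells. Stem cells were taken as a long-term fraction, called LT-HSC (n = 5), and a short-term fraction, called ST-HSC (n = 5). Progenitors were taken as multipotent cells (MPP, n = 6), as the common progenitor of the myeloid lineages (CMP, n = 5) and as its committed offspring, those of granulocytes and macrophages (GMP, n = 5) and those of megakaryocytes and erythrocytes (MEP, n = 4). The 19 leukaemias carried MLL-AF9 (MA9), a fusion gene of acute myeloid leukaemia that was delivered with a GFP reporter by retrovirus into sorted cells before transplantation into sublethally irradiated mice. Each was named for the transduced cell, with 6 leukaemias in GMP:MA9, 4 in CMP:MA9, 6 in MPP:MA9 and 3 in STHSC:MA9. The retroviral promoter, and not the Mll promoter, drove the fusion, the recipients kept part of their own blood system, and the normal cells came from mice that received neither virus nor transplant. The methods describe sorted GFP+ cells of the spleen as leukaemia material, whereas the labels give bone marrow for every sample. The matched normal cells were sorted as c-Kit+ and negative for markers of mature lineages, the leukaemia cells on GFP. Leukaemic recipients were taken when ill, after a time that differed with the transduced cell, although the labels give 6 to 12 weeks for every sample. Fusion, virus, transplantation, tissue, sort gate and age at sampling therefore cannot be told apart in any comparison of a leukaemia with its normal cell.

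HOX proteins alone select DNA sites poorly, and MEIS, PBX and PREP proteins (PREP1 is the product of Pknox1) join them on DNA and sharpen the choice of site. MEIS and PREP proteins also bind PBX proteins away from DNA, which holds PBX in the nucleus and stabilises it. In the blood system Meis1 is known for its need in stem cells and megakaryocytes, and together with Hoxa9 it is a classical target of MLL fusion proteins. PBX3 is known as a HOXA9 partner in MLL-rearranged leukaemia.

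A late part of the shared homeodomain is shown first because the members fall into groups by it, alike within the Meis genes and within Pbx2 and Pbx3 and different between them. For each member 78 coding bases near the end of the homeobox, without its last codons, were read from the longest complete coding transcript (GENCODE vM1 on NCBIM37, which is mm9). The last 18 bases are in capitals and begin at the TGG codon of the DNA recognition helix.
Meis1: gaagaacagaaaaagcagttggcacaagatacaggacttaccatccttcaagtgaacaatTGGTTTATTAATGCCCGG
Meis2: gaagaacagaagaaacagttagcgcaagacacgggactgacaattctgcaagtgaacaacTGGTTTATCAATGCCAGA
Meis3: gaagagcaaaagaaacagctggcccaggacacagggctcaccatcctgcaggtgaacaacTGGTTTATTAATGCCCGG
Pbx2: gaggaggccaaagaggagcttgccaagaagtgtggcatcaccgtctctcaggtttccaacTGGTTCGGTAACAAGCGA
Pbx3: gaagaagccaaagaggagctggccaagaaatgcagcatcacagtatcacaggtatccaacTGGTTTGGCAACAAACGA
Pknox1: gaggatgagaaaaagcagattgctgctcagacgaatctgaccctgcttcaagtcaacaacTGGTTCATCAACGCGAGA

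The 3 Meis stretches encoded the same 26 residues, with 0 differing, although they differed from each other at 13 to 15 of 78 bases. Pbx2 and Pbx3 differed at 13 bases and at 1 of 26 residues, and either differed from the Meis genes at 12 to 13 residues. Pknox1 was nearer to the Meis genes, with 7 of 26 residues differing, than to Pbx2 and Pbx3, with 15 differing. Each stretch spanned the junction of a pair of exons: exons 9 and 10 in Meis1 (chr11:18785639-18805753, minus strand), Meis2 (chr2:115694524-115747469, minus strand), Meis3 (chr7:16769155-16769402, plus strand) and Pknox1 (chr17:31739746-31740147, plus strand), and exons 5 and 6 in Pbx2 (chr17:34731612-34731772, plus strand) and Pbx3 (chr2:34033836-34060350, minus strand). The longest run of identical bases between any pair of Meis genes was 18, and between Pbx2 and Pbx3 it was 14. Over whole merged exons, the share of 31-base windows found in another annotated gene was 0% for Meis3 and Pknox1, 0.0492% for Pbx3, 0.35% for Meis2, 5.90% for Pbx2 and 12.7% for Meis1. The shared windows of Pbx2 lay in the overlapping gene Gpsm3, and most of the 883 shared windows of Meis1 lay in the antisense gene Gm16140.

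Levels are FPKM, fragments counted per length of transcript and per depth of the library, so that genes can be compared per length. Changes are differences of log2(FPKM + 1), which understate the change of genes with low values. They were tested with limma across the genes that averaged 1 FPKM or more over the samples of a fit, with Benjamini-Hochberg adjusted p-values. To be called, a gene needed an adjusted p below 0.05 together with a log2 change beyond 1 in either direction, and the words rose, fell, higher and lower in a test mean an adjusted p below 0.05. Meis1, Pbx2, Pbx3 and Pknox1 passed the filter in every fit, and Meis2 and Meis3 in none of the 3 fits reported. Where samples of groups are said not to overlap, the share of all genes that separate likewise was not computed.

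Depth is unknown as read numbers. The most frequent ratio of low values to those of 1 reference sample gave depths of 0.543 to 1.66 relative to the median sample. Genes at this ratio were taken to have equal read numbers. Per sample, 15282 to 17852 genes were above 0. Slamf1, which encodes CD150, was at 4.79 to 17.03 FPKM in LT-HSC and ST-HSC, which were sorted as CD150+, and at most 0.3 FPKM in MPP and GMP, sorted as CD150-. In CMP, also sorted as CD150-, it was at 2.19 to 3.99 FPKM. Cd34 was at 7.53 to 18.1 FPKM in LT-HSC and at 44.1 FPKM or more in ST-HSC. Kit was at 43.2 FPKM or more in LT-HSC and at 0.33 to 5.94 FPKM in the leukaemias. Itgam, which encodes the mature lineage marker CD11b, was at 154 to 536 FPKM in the leukaemias. It was at 232 and 74.2 FPKM in LT-HSC replicates 4 and 5 and at 101 and 30.9 FPKM in ST-HSC replicates 4 and 5. The other normal samples were at 1.92 to 28.7 FPKM. The sum of 5 granulocyte markers (S100a8, S100a9, Ltf, Camp and Ngp) ranged from 592 to 42648 FPKM in leukaemias. In normal samples it was 10.6 to 10956 FPKM apart from LT-HSC replicates 4 and 5 (61823 and 26024 FPKM) and ST-HSC replicate 4 (36251 FPKM), with ST-HSC replicate 5 at 7273 FPKM. Results that involve LT-HSC or ST-HSC were also computed without these 4 libraries, and values without them stand beside many of the results that are named. In bulk samples, fewer cells of a type and less RNA per cell cannot be told apart.

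**Figure D1:**
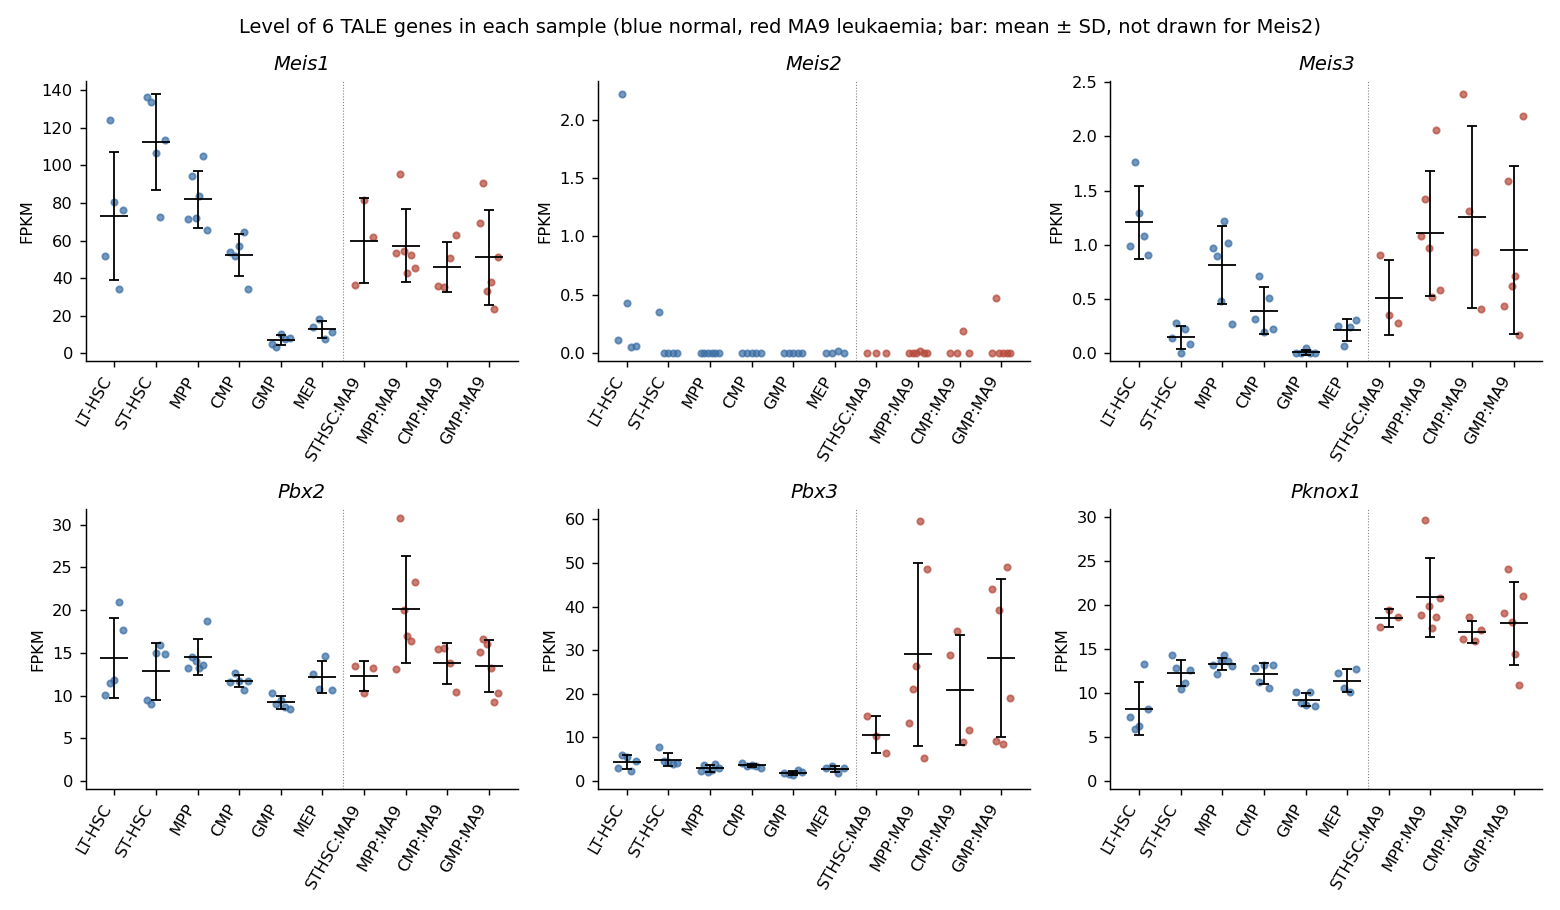
FPKM of each of the 6 genes (1 panel each, linear axis) in all 49 samples by group, with normal groups in blue, leukaemias in red and bars for mean ± SD (not drawn for Meis2, which was listed at 0 in 39 samples). Meis1 was low in GMP and MEP alone, Pbx3 was above every normal sample in 17 of 19 leukaemias, and Pknox1 was above every normal sample in 18 of 19. How many of all genes separate likewise was not computed.

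Meis1 (ENSMUSG00000020160, chromosome 11, 18780433 to 18918961, minus strand) encodes the MEIS protein that pairs with HOXA9 in myeloid leukaemia. Along normal differentiation its mean level was 112 ± 25.7 FPKM in ST-HSC (SD, n = 5), 82.1 ± 15.2 in MPP (SD, n = 6), 73.2 ± 34.1 in LT-HSC (SD, n = 5) and 52.4 ± 11.2 in CMP (SD, n = 5). It was 12.8 ± 4.64 FPKM in MEP (SD, n = 4) and 6.94 ± 2.67 FPKM in GMP (SD, n = 5). The 4 groups from ST-HSC to CMP thus lay well above both committed progenitors, and the lowest sample of the former (34.0 FPKM, LT-HSC replicate 4) stood above the highest of the latter (18.4 FPKM).

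By sample, Meis1 was at 53.7, 52.0, 57.2, 64.8 and 34.3 FPKM in CMP and at 5.19, 3.52, 10.5, 7.56 and 7.98 FPKM in GMP. The 4 MEP samples read 14.1, 18.4, 7.45 and 11.2 FPKM. Neither committed progenitor overlapped with CMP. CMP exceeded GMP by 2.79 ± 0.28 on the log2 scale (SE; limma, adjusted p = 8.05e-09) and MEP by 1.99 ± 0.29 (SE; limma, adjusted p = 6.12e-06). GMP lay below MEP by 0.80 on the log2 scale (95% interval -1.40 to -0.21; limma, adjusted p = 0.0249), although their ranges overlapped, and passed the fold threshold without MEP replicate 3 (-1.02, adjusted p = 0.00840).

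Among the upper groups, neighbours in the order of Meis1 levels did not pass the test. ST-HSC against MPP gave a log2 difference of 0.44 (95% interval -0.11 to 0.98), and 0.62 (limma, adjusted p = 0.106) without the 4 granulocyte-rich libraries. LT-HSC against MPP gave -0.27 (95% interval -0.81 to 0.27), and LT-HSC against CMP gave 0.38 (95% interval -0.19 to 0.94). Without those libraries LT-HSC against MPP was -0.0143 (limma, adjusted p = 0.976). LT-HSC against CMP was then 0.63 (95% interval 0.0468 to 1.22, limma, adjusted p = 0.0884). Of the other pairs, ST-HSC exceeded CMP by 1.08 on the log2 scale (limma, adjusted p = 0.00588; 1.27 and 0.00215 without the granulocyte-rich libraries), with no overlap between the samples. Without CMP replicate 5 it was 0.94 (adjusted p = 0.0255), below the fold threshold. MPP against CMP gave 0.65 (95% interval 0.11 to 1.19; limma, adjusted p = 0.1004), also with no overlap, and passed the test after correction for GC content and length (adjusted p = 0.0487) and when only these groups were fitted (adjusted p = 0.0139). LT-HSC samples spread from 34.0 to 124 FPKM, and the lowest was the library with the highest granulocyte markers. Without the 4 granulocyte-rich libraries, LT-HSC against ST-HSC was -0.63 (limma, adjusted p = 0.213), beside -0.71 (adjusted p = 0.112) with them. It passed the test when LT-HSC replicate 2 alone (-0.93, limma, adjusted p = 0.0285) or ST-HSC replicate 4 alone (-0.85, adjusted p = 0.0479) was left out.

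In the leukaemias Meis1 lay between 23.7 and 95.5 FPKM in all 19 samples, with a median of 51.2 FPKM, a 4.02-fold range beside a 38.7-fold range over the normal samples. Group means were 59.9 ± 22.7 FPKM in STHSC:MA9 (SD, n = 3), 57.3 ± 19.3 in MPP:MA9 (SD, n = 6), 46.2 ± 13.3 in CMP:MA9 (SD, n = 4) and 51.1 ± 25.2 in GMP:MA9 (SD, n = 6). The 4 means thus lay close together, and their spreads overlapped.

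Compared with its own normal cell, Meis1 rose in leukaemias from GMP, where it was lowest to begin with. GMP:MA9 samples were at 69.6, 90.8, 33.2, 38.0, 23.7 and 51.2 FPKM, so the lowest of them was above the highest GMP sample. The log2 change was 2.65 ± 0.27 (SE; limma, adjusted p = 3.31e-10), or 6.26-fold on the FPKM + 1 scale. In STHSC:MA9, at 36.2, 81.5 and 62.2 FPKM, Meis1 was lower than in ST-HSC, at 136, 134, 107, 72.5 and 113 FPKM. The log2 change of -0.94 ± 0.32 (SE; limma, adjusted p = 0.0156) did not pass the fold threshold, and the ranges overlapped. It was -1.12 (adjusted p = 0.0101) without ST-HSC replicates 4 and 5, which does pass it. It also passed both thresholds without ST-HSC replicate 4 alone (-1.09, adjusted p = 0.00663), without STHSC:MA9 replicate 2 (-1.19, adjusted p = 0.00757) or 3 (-1.001, adjusted p = 0.0295) and with the replicate number as a block (-1.004, adjusted p = 0.0153). It was -0.62 (adjusted p = 0.172) without STHSC:MA9 replicate 1, which had the lowest level.

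Leukaemias from MPP and CMP gave values on the same side of 0 without passing the test. MPP:MA9 against MPP was -0.54 (95% interval -1.06 to -0.03; limma, adjusted p = 0.0625; -0.70 and 0.0191 without MPP:MA9 replicate 2). Its adjusted p was 0.0158 when only these groups were fitted, 0.0446 without GMP:MA9 replicate 2 and 0.0469 without GMP:MA9 replicate 5. CMP:MA9 against CMP was -0.19 (95% interval -0.79 to 0.41; limma, adjusted p = 0.598). The Meis1 change differed among the 4 origins (limma F test, adjusted p = 7.99e-09), as did that of 38.0% of the 12600 genes tested. The change in GMP:MA9 exceeded that in each other leukaemia: STHSC:MA9 differed from it by -3.58 on the log2 scale (adjusted p = 3.85e-08), MPP:MA9 differed from it by -3.19 (adjusted p = 2.41e-08) and CMP:MA9 by -2.84 (adjusted p = 2.55e-06). None of the 3 differences among the other origins passed the test. Without ST-HSC replicates 4 and 5 the F test gave an adjusted p of 9.21e-09 and the difference of STHSC:MA9 from GMP:MA9 was -3.77 (limma, adjusted p = 6.30e-08).

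The library did not preserve strand, so antisense RNA of the Meis1 locus cannot be separated from Meis1. The antisense genes Gm16140 and Gm16141 were at a mean of at most 4.70 and 3.53 FPKM in any group, both in ST-HSC. They were at 0.09 and 0.192 FPKM in GMP, and at 0.342 and 1.33 FPKM in GMP:MA9. Both were thus far below Meis1 per length in every group, and their part in its values was not tested.

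Meis2 (ENSMUSG00000027210, chromosome 2, 115688800 to 115891575, minus strand), a close relative of Meis1 known from limb and nervous system development, was above 0 in 10 of 49 samples. The 5 LT-HSC samples read 0.11, 2.22, 0.43, 0.05 and 0.06 FPKM, and LT-HSC was the only group in which every sample was above 0. MPP, CMP, GMP and STHSC:MA9 were listed at 0 throughout. In the remaining groups 5 samples were above 0: ST-HSC replicate 1 (0.35 FPKM), MEP replicate 3 (0.02), MPP:MA9 replicate 4 (0.02), CMP:MA9 replicate 3 (0.19) and GMP:MA9 replicate 2 (0.47). Without the filter on low values no leukaemia comparison and no step between neighbouring normal groups passed the test for Meis2. LT-HSC exceeded MPP, CMP, GMP and MEP by 0.49 to 0.50 on the log2 scale (limma, adjusted p = 0.0341 to 0.0495), beside 0.42 (adjusted p = 0.214) for LT-HSC against ST-HSC, and the level in LT-HSC replicate 2 stood far above the others. Without the granulocyte-rich libraries, which kept LT-HSC replicate 2, the 4 differences were 0.78 (adjusted p = 0.00211 to 0.00454) and that from ST-HSC was 0.64 (adjusted p = 0.0680). The test pools the spread of all normal groups, of which MPP, CMP and GMP were at 0 throughout. These p-values therefore do not measure the spread within LT-HSC. A fit without the filter and without LT-HSC replicate 2 was not run.

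Meis3 (ENSMUSG00000041420, chromosome 7, 16760729 to 16771853, plus strand) was low but patterned. LT-HSC samples were at 0.99, 1.76, 1.29, 1.08 and 0.91 FPKM, ST-HSC at 0.14, 0.28, 0, 0.22 and 0.09 FPKM, and MPP between 0.27 and 1.22 FPKM. The ranges of LT-HSC and ST-HSC were separate, and MPP overlapped with LT-HSC. In GMP it was listed at 0 in 4 of 5 samples and at 0.05 FPKM in the other.

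Of 30 normal samples 25 were above 0 for Meis3, and all 19 leukaemias were, from 0.17 to 2.39 FPKM with a median of 0.91. Mean levels were 0.513 ± 0.345 FPKM in STHSC:MA9 (SD, n = 3), 1.10 ± 0.574 in MPP:MA9 (SD, n = 6), 1.26 ± 0.839 in CMP:MA9 (SD, n = 4) and 0.953 ± 0.772 in GMP:MA9 (SD, n = 6). Against normal cells and between normal groups Meis3 was tested only without the filter. Between leukaemias it passed the filter in some fits that left out 1 sample or held only the groups compared, and none of those tests passed. Without the filter GMP:MA9 exceeded GMP by 0.86 ± 0.21 on the log2 scale (SE; limma, adjusted p = 0.00124) and CMP:MA9 exceeded CMP by 0.64 ± 0.23 (SE; adjusted p = 0.0294). It was higher in LT-HSC than in ST-HSC (0.94 ± 0.13, SE; adjusted p = 7.70e-05), lower in ST-HSC than in MPP (-0.64 ± 0.12, SE; adjusted p = 9.57e-04) and higher in CMP than in GMP (0.45 ± 0.13, SE; adjusted p = 0.0114). All of these changes were below the fold threshold. Without the granulocyte-rich libraries LT-HSC against ST-HSC was 1.04 (limma, adjusted p = 4.75e-04), which passes it, and ST-HSC against MPP was -0.65 (adjusted p = 0.00484). At such levels 1 read or a few can set a value.

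Pbx3 (ENSMUSG00000038718, chromosome 2, 34026977 to 34228660, minus strand) encodes the PBX partner linked to HOXA9 in MLL-rearranged leukaemia. In normal cells it was low throughout: 4.28 ± 1.60 FPKM in LT-HSC (SD, n = 5), 4.92 ± 1.60 in ST-HSC (SD, n = 5), 3.56 ± 0.42 in CMP (SD, n = 5), 2.88 ± 0.711 in MPP (SD, n = 6), 2.73 ± 0.707 in MEP (SD, n = 4) and 1.89 ± 0.48 in GMP (SD, n = 5). In leukaemias the means were 10.6 ± 4.22 FPKM in STHSC:MA9 (SD, n = 3), 29.0 ± 20.9 in MPP:MA9 (SD, n = 6), 21.0 ± 12.6 in CMP:MA9 (SD, n = 4) and 28.2 ± 18.1 in GMP:MA9 (SD, n = 6).

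By sample, Pbx3 in MPP:MA9 was at 13.3, 21.1, 26.4, 59.6, 5.25 and 48.5 FPKM, beside 2.38, 3.59, 2.02, 2.5, 3.82 and 2.94 FPKM in MPP. CMP:MA9 samples were at 29.0, 34.4, 8.87 and 11.6 FPKM, beside 4.17, 3.37, 3.77, 3.38 and 3.09 FPKM in CMP. GMP:MA9 samples were at 44.0, 9.18, 39.3, 8.52, 49.1 and 18.97 FPKM, beside 1.93, 1.56, 1.37, 2.62 and 1.97 FPKM in GMP. Every leukaemia of these 3 origins lay above every sample of its normal cell. STHSC:MA9 was at 14.9, 10.3 and 6.49 FPKM and ST-HSC at 7.73, 4.59, 4.29, 3.81 and 4.18 FPKM, so here 1 leukaemia fell within the normal range.

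Pbx3 rose by 3.05 ± 0.42 on the log2 scale in GMP:MA9 (SE; limma, adjusted p = 2.03e-07), by 2.61 ± 0.40 in MPP:MA9 (adjusted p = 7.89e-07) and by 2.07 ± 0.47 in CMP:MA9 (adjusted p = 2.76e-04). In STHSC:MA9 the change was 0.94 (95% interval -0.10 to 1.97; limma, adjusted p = 0.129; 0.80 and 0.270 without ST-HSC replicates 4 and 5). It passed the test when only STHSC:MA9 and ST-HSC were fitted (adjusted p = 0.0249). The F test of a difference among the 4 origins missed the threshold for Pbx3 (limma, adjusted p = 0.0525), which it passed without MPP:MA9 replicate 5 (adjusted p = 0.0125) and without some other single leukaemias. The pair STHSC:MA9 and GMP:MA9 differed by -2.11 ± 0.66 in their change (SE; limma, adjusted p = 0.0130). Without ST-HSC replicates 4 and 5 the F test gave 0.0639 and the pair -2.25 (adjusted p = 0.0160).

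**Figure D2:**
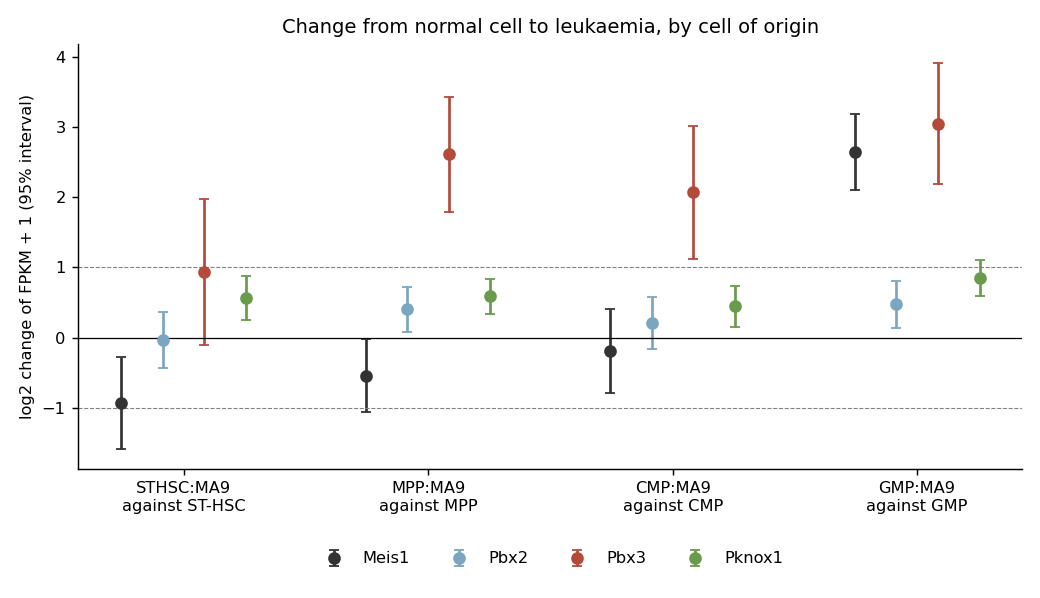
Log2 change of FPKM + 1 from the normal cell to the leukaemia (vertical axis) for each of 4 origins and the 4 members that passed the filter, with 95% intervals from limma and dashed lines at a log2 change of 1 in either direction. Meis1 was at 2.65 in GMP:MA9 and at or below -0.19 in the other leukaemias, Pbx3 lay between 0.94 and 3.05, and Pknox1 between 0.45 and 0.85.

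The spread of Pbx3 between leukaemias was wide. Within leukaemia groups its SD on the log2 scale was 1.04, above that of 97.1% of 12128 genes, whose median was 0.329. Within normal groups the SD of Pbx3 was 0.307, above that of 50.0% of 12367 genes. Each leukaemia group held at least 1 sample below 9.18 FPKM and at least 1 above 10.3 FPKM. Granulocyte markers, summed as above, were at 591.7 FPKM in the leukaemia with the highest Pbx3 (MPP:MA9 replicate 4) and at 23803 FPKM in that with the lowest (MPP:MA9 replicate 5). Marker sums were higher still in STHSC:MA9 replicate 3, MPP:MA9 replicate 2 and CMP:MA9 replicate 3, with Pbx3 at 6.49, 21.15 and 8.87 FPKM. After MPP:MA9 replicate 4 the lowest sums were in GMP:MA9 replicate 3 and CMP:MA9 replicate 1, with Pbx3 at 39.3 and 29.0 FPKM. The markers did not follow 1 order throughout. They were at 10627 FPKM in GMP:MA9 replicate 1, where Pbx3 was at 44.0 FPKM, and at 1379 FPKM in CMP:MA9 replicate 4, where it was at 11.6 FPKM. Their part in the spread was not tested.

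An overlapping gene of the opposite strand, C79798, had means of 0.122 to 1.24 FPKM in normal groups and 1.36 to 7.81 FPKM in leukaemia groups. It was below Pbx3 per length in every group mean. By sample it was highest in GMP:MA9 replicates 1, 3 and 5 (17.41, 11.59 and 9.64 FPKM), which also had the highest Pbx3 of that group (43.97, 39.26 and 49.14 FPKM). In MPP:MA9 replicates 4 and 6, with Pbx3 at 59.56 and 48.54 FPKM, C79798 was at 2.47 and 2.59 FPKM. The part of C79798 in the Pbx3 values was not tested. Among normal cells Pbx3 was higher in ST-HSC than in MPP (log2 difference 0.60 ± 0.19, SE; limma, adjusted p = 0.0268) and in CMP than in GMP (0.67 ± 0.20, SE; adjusted p = 0.00902), both below the fold threshold. The first was 0.74 (adjusted p = 0.0111) without the granulocyte-rich libraries and 0.45 (adjusted p = 0.111) without ST-HSC replicate 1, the highest normal sample. Its adjusted p was 0.0547 to 0.0615 without MPP replicate 1, 3 or 4 and 0.0505 with the replicate number as a block. In the order of levels, ST-HSC, LT-HSC, CMP, MPP, MEP and GMP, no pair of neighbours passed the test.

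Pbx2 (ENSMUSG00000034673, chromosome 17, 34728211 to 34734345, plus strand), a broadly expressed PBX gene, changed little. Group means ran from 9.19 ± 0.78 FPKM in GMP (SD, n = 5) to 14.5 ± 2.13 in MPP (SD, n = 6) in normal cells, and from 12.3 ± 1.76 in STHSC:MA9 (SD, n = 3) to 20.1 ± 6.26 in MPP:MA9 (SD, n = 6) in leukaemias. The means of the remaining groups were 14.4 FPKM in LT-HSC, 12.9 in ST-HSC, 11.7 in CMP, 12.1 in MEP, 13.8 in CMP:MA9 and 13.4 in GMP:MA9. Over all samples the lowest value was 8.37 FPKM and the highest 30.8 FPKM, in MPP:MA9 replicate 2.

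Pbx2 was higher in MPP:MA9 than in MPP (log2 change 0.40 ± 0.16, SE; limma, adjusted p = 0.0256) and in GMP:MA9 than in GMP (0.48 ± 0.17, SE; adjusted p = 0.0136), with overlapping ranges in both. After correction for GC content and length these adjusted p-values were 0.0543 and 0.0682, and that for MPP:MA9 was 0.116 without its replicate 2 and 0.0632 without its replicate 6. In CMP:MA9 the change was 0.21 (95% interval -0.16 to 0.58) and in STHSC:MA9 it was -0.03 (95% interval -0.44 to 0.37). None of the 5 steps between normal groups passed the test for Pbx2. Without the granulocyte-rich libraries it was lower in ST-HSC than in MPP (-0.37, limma, adjusted p = 0.0466) and higher in CMP than in GMP (0.32, adjusted p = 0.0375), but the first was 0.11 and the second -0.12 after correction for GC content and length. The overlapping gene Gpsm3, on the same strand, was at means of 9.28 to 25.2 FPKM in normal groups and 56.2 to 81.3 FPKM in leukaemia groups, and its part in the Pbx2 values was not tested.

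Pknox1 (ENSMUSG00000006705, chromosome 17, 31701718 to 31744638, plus strand) encodes PREP1, which competes with MEIS proteins for PBX. Its means were 13.3 ± 0.698 FPKM in MPP (SD, n = 6), 12.2 ± 1.48 in ST-HSC (SD, n = 5), 12.2 ± 1.23 in CMP (SD, n = 5), 11.4 ± 1.27 in MEP (SD, n = 4), 9.22 ± 0.767 in GMP (SD, n = 5) and 8.17 ± 3.01 in LT-HSC (SD, n = 5). The leukaemias were at 18.5 ± 1.01 FPKM in STHSC:MA9 (SD, n = 3), 20.8 ± 4.48 in MPP:MA9 (SD, n = 6), 16.9 ± 1.24 in CMP:MA9 (SD, n = 4) and 17.9 ± 4.69 in GMP:MA9 (SD, n = 6). GMP:MA9 replicate 5, at 10.9 FPKM, was the only leukaemia within the range of all normal samples, which ended at 14.3 FPKM. No leukaemia overlapped with its own normal cell, and the share of all genes of which this is true was not computed.

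Pknox1 was higher in all 4 leukaemia groups than in the normal cell, as was true, by adjusted p alone, of 13.0% of the genes tested. The log2 changes were 0.85 ± 0.13 in GMP:MA9 (SE; limma, adjusted p = 9.97e-07), 0.59 ± 0.12 in MPP:MA9 (adjusted p = 8.63e-05), 0.56 ± 0.16 in STHSC:MA9 (adjusted p = 0.00289; 0.54 and 0.0122 without ST-HSC replicates 4 and 5) and 0.45 ± 0.14 in CMP:MA9 (adjusted p = 0.00765). All were below the fold threshold. The F test across origins gave an adjusted p of 0.293 (limma), with all 4 intervals between 0.16 and 1.11.

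Among normal cells, Pknox1 was lower in LT-HSC than in ST-HSC. LT-HSC samples were at 7.25, 5.91, 6.21, 13.3 and 8.17 FPKM, with 13.3 in the granulocyte-rich replicate 4, and ST-HSC samples at 14.3, 12.8, 10.5, 11.2 and 12.6 FPKM. The log2 difference was -0.58 ± 0.14 (SE; limma, adjusted p = 0.00680), and -0.85 ± 0.13 (adjusted p = 7.96e-05) without the granulocyte-rich libraries. It was -0.44 (adjusted p = 0.0962) after median-ratio scaling of the samples, and its adjusted p was 0.287 in a fit of these 2 groups alone. CMP exceeded GMP by 0.37 ± 0.14 (SE; limma, adjusted p = 0.0360) with no overlap, a difference that was 0.17 (adjusted p = 0.460) after the same scaling and 0.13 (adjusted p = 0.543) after correction for GC content and length. It also missed the threshold, at adjusted p-values of 0.0669 to 0.0779, when CMP replicate 1, 3 or 5 or GMP replicate 2, 3 or 5 was left out alone.

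Counted together over the 4 comparisons of leukaemia with normal cell, the members gave 4 calls in 16 tests, all of them higher. They were Pbx3 in MPP:MA9, CMP:MA9 and GMP:MA9 and Meis1 in GMP:MA9. Of all 12600 genes, 24.2% were called in STHSC:MA9, where no member was, 27.1% in MPP:MA9, 27.8% in CMP:MA9 and 22.4% in GMP:MA9, and 12.3%, 13.5%, 13.0% and 13.5% were called higher. The share of members called was thus 1 of 4 in MPP:MA9 and in CMP:MA9 and 2 of 4 in GMP:MA9. By adjusted p alone, 11 of the 16 tests passed, 10 of them higher. Of all genes, 48.4% passed in either direction in STHSC:MA9, 62.5% in MPP:MA9, 59.8% in CMP:MA9 and 58.4% in GMP:MA9. The shares of all genes that passed as higher are not given here.

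Between leukaemias of different origin no member was called in 24 tests over 6 pairs. With limma, 0 also passed by adjusted p alone, although Pbx2 in STHSC:MA9 against MPP:MA9 (log2 difference -0.63, adjusted p = 0.0799) and in MPP:MA9 against GMP:MA9 (0.53, adjusted p = 0.0581) came nearest. At an unadjusted p below 0.05, 3 of the 24 passed, all for Pbx2. Without MPP:MA9 replicate 1 both differences just named passed by adjusted p (0.0403 and 0.0250, limma), as did the second without GMP:MA9 replicate 2 (0.0392), and neither reached the fold threshold. Of 12128 genes, 2.88% were called in STHSC:MA9 against MPP:MA9, 0.363% in STHSC:MA9 against CMP:MA9, 0.536% in STHSC:MA9 against GMP:MA9, 0.115% in MPP:MA9 against CMP:MA9, 2.23% in MPP:MA9 against GMP:MA9 and 0.206% in CMP:MA9 against GMP:MA9. The intervals remained wide for Pbx3, from -2.47 to 0.31 in STHSC:MA9 against MPP:MA9, and narrower for Pknox1, from -0.55 to 0.26.

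In the 5 normal steps, which share the ST-HSC, MPP and CMP samples, the members gave 2 calls in 20 tests, both for Meis1. They were CMP against GMP and CMP against MEP, where 11.2% and 11.8% of 12367 genes were called. The other 3 steps had no member called, beside 2.26% of genes between LT-HSC and ST-HSC, 3.44% between ST-HSC and MPP and 4.32% between MPP and CMP. By adjusted p alone 6 of 20 tests passed, beside 9.19%, 18.9%, 14.5%, 36.7% and 31.6% of genes from the LT-HSC step to that of CMP against MEP. Of pairs that are not neighbours, ST-HSC against CMP had 4.27% of genes called.

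**Figure D3:**
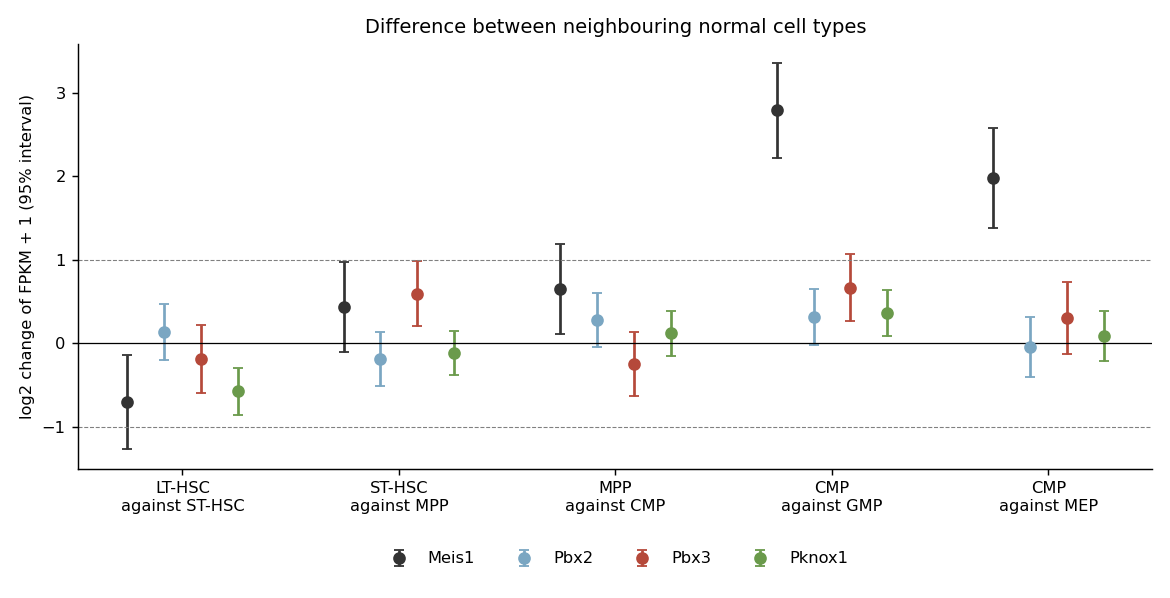
Log2 difference of FPKM + 1 (vertical axis) for 5 pairs of neighbouring normal groups, first group against second, for the 4 members that passed the filter, with 95% intervals from limma and dashed lines at a log2 difference of 1 in either direction. Meis1 stands at 2.79 for CMP against GMP and at 1.99 for CMP against MEP, and every other value lies within 1 of 0.

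Of the leukaemias, MPP:MA9 replicate 2 and GMP:MA9 replicate 2 had the highest Meis1 (95.5 and 90.8 FPKM) and the highest Pknox1 (29.7 and 24.1 FPKM).

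Partner genes and known targets, taken from lists of known genes, moved as follows. Of 19 HOXA and HOXB genes listed as partners, 8 passed the filter, and 7 of these were called higher in GMP:MA9, 5 in CMP:MA9, 1 in MPP:MA9 and 1 in STHSC:MA9, with 0 called lower in any. The shares of all genes called higher are those given above, 13.5%, 13.0%, 13.5% and 12.3% in the same order. Their median log2 change was 2.44 in GMP:MA9, 1.34 in CMP:MA9, 0.27 in MPP:MA9 and 0.80 in STHSC:MA9, beside medians over all genes of 0.00, -0.16, -0.09 and -0.04. Hoxa10 was called higher in all 4 groups. Hoxa9 was called in GMP:MA9 and CMP:MA9 (log2 changes of 2.78 and 1.68).

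Of 10 genes listed as known targets of Meis1 complexes, 9 passed the filter, and they did not move as 1 group. In GMP:MA9, 3 were called higher (Flt3, Ccl3 and Ccl4) and 2 lower (Cd34 and Pf4). In MPP:MA9, 7 were called lower and 0 higher, in STHSC:MA9 4 lower and 0 higher, and in CMP:MA9 1 higher and 3 lower. Of all genes 8.87% were called lower in GMP:MA9, 13.6% in MPP:MA9, 11.9% in STHSC:MA9 and 14.8% in CMP:MA9. Flt3, a receptor of early progenitors, rose by 3.16 in GMP:MA9 (limma, adjusted p = 9.84e-07) and fell by 1.76 in MPP:MA9 (log2 change -1.76, adjusted p = 0.00114). The MPP:MA9 samples spread from 6.79 to 106.61 FPKM, across the MPP range of 77.75 to 92.02 FPKM. Of 4 other TALE genes (Pbx4, Pknox2, Tgif1 and Tgif2), 3 passed the filter, and all 3 were called lower in STHSC:MA9, MPP:MA9 and CMP:MA9, with median log2 changes of -1.74, -2.10 and -1.49. Pbx4 was called lower in all 4 leukaemia groups, with log2 changes of -2.14 in STHSC:MA9, -2.59 in MPP:MA9, -2.82 in CMP:MA9 and -1.39 in GMP:MA9, which was true of 3.17% of the genes tested. Tgif1 and Tgif2, repressors of the same class, gave log2 changes of -0.97 and -0.64 in GMP:MA9. Without ST-HSC replicates 4 and 5, STHSC:MA9 had 1 HOX gene called higher, 5 targets lower (Flt3 in addition) and the same 3 TALE genes lower.

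By the likeness of log2(FPKM + 1) over all 49 samples, among 12156 genes, Meis1 was nearest to Parp12 (Pearson r = 0.857), Rhof (0.852) and Ndrg1 (0.823). Pbx2 was nearest to Triobp (0.779), Iqsec1 (0.759) and Ypel3 (0.732), and Pknox1 to Nat15 (0.854), Akna (0.844) and Abca7 (0.844). Pbx3 was nearest to Gm10693 (0.926), Gm15925 (0.890) and Cacna1d (0.877). The samples of a group share their cell type, so the points are not independent, and the values describe the 49 samples only. Within the 30 normal samples the 3 genes nearest to Pbx3 gave r from -0.32 to -0.13, and within the 19 leukaemias from 0.65 to 0.85. For Meis1 the order was the other way round, with r of 0.90 to 0.92 in normal samples and 0.16 to 0.66 in leukaemias.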

How the data were processed

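The authors deposited FPKM values, estimated per gene with RSEM from amplified cDNA (NuGEN, unstranded) sequenced on an Illumina HiSeq, and rounded to 2 decimals. The processing notes name RSEM and mm9, and the aligner, annotation and RSEM version are not given in the sources used here. The table has 68 sample columns, of which 49 could be tied to a label, and the other 19 were left aside. Groups and replicate numbers came from the labels, and each sample came from its own mouse according to the study's description of the samples. The labels name neither a batch nor which of the replicate experiments a sample belongs to.

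Symbols, positions, sequences, GC content and length came from GENCODE vM1 (NCBIM37), which names 33068 of the genes. Values were tested as log2(FPKM + 1) with limma 3.58.1 in R 4.3.3 (trend in eBayes, two-sided, Benjamini-Hochberg over all genes), filtered at a mean of at least 1 FPKM. Separate fits held the 4 leukaemia and 4 matched normal groups (12600 genes), the 19 leukaemias (12128 genes) and the 30 normal samples (12367 genes). The functions were tested on simulated data. Other steps used Python 3.11.15, pandas 2.3.3 and numpy 2.4.6.

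The 6 members, the gene lists and the tests were chosen with earlier results of these data known. Named besides them are the 3 genes most like each member with a mean of at least 1 FPKM, by Pearson correlation. Genes from the lists that are named singly were chosen after their values were seen, and 1 listed gene is not reported here. Alternatives were a pseudocount of 0.1, no filter, median-ratio scaling, a regression on GC content and gene length, the replicate number as a block, both together, only the groups compared, no fold threshold and leaving out each sample. Leaving out granulocyte-rich libraries, also together with no filter, was added after seeing the data.

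Same-numbered samples deviated together in LT-HSC and ST-HSC (correlation of deviations over all genes 0.142 to 0.683 in 5 pairs). In the other comparisons at least 1 pair was at or below 0.1. The granulocyte-rich libraries carried the same replicate numbers in LT-HSC and ST-HSC, and their part in this correlation was not tested. Whether the numbers pair these groups was therefore not tested either. With the replicate number as a block, Meis1 in LT-HSC against ST-HSC was -0.71 (limma, adjusted p = 0.137). Pknox1 was then -0.58 (adjusted p = 0.00926), and no value with the block is given for Meis3. The FPKM carry no read counts, so no counting interval was computed. p-values measure the spread between samples, each from its own mouse, and treat them as independent. Mice of the same replicate experiment may have shared donor cells and a transduction, which the labels do not give.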

Additional observations from a re-analysis of the deposited data

Results flagged for a closer look

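Within groups, the gap of the highest or lowest sample to the next, whichever was larger, was divided by the range of the group. It exceeded Dixon's 95% value in 11 of 51 groups of 4 to 6 samples, with groups at 0 throughout left out. For normally distributed values chance gives about 1 in 20, a rate that does not hold for groups listed mostly at 0. MPP:MA9 replicate 2 stood apart for Meis1 (95.5 FPKM, ratio 0.783) and for Pknox1 (29.7 FPKM, ratio 0.726). The other cases among genes with levels above 1 FPKM throughout were Pbx2 in MPP replicate 6 (18.7 FPKM, ratio 0.770) and Pbx3 in ST-HSC replicate 1 (7.73 FPKM, ratio 0.801). For Meis2, LT-HSC replicate 2 stood apart at 2.22 FPKM (ratio 0.825). Of the remaining 6, 5 were Meis2 in ST-HSC, MEP, MPP:MA9, CMP:MA9 and GMP:MA9 and 1 was Meis3 in GMP, each with a ratio of 1.0 because 1 sample was above 0 and all others were listed at 0.

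For Meis1 the 4 origins did not share 1 change between normal cell and leukaemia (limma F test, adjusted p = 7.99e-09). Relative to GMP:MA9, the log2 change of Meis1 was -3.58 in STHSC:MA9 (adjusted p = 3.85e-08), -3.19 in MPP:MA9 (adjusted p = 2.41e-08) and -2.84 in CMP:MA9 (adjusted p = 2.55e-06). For Pbx3 the change in STHSC:MA9 minus that in GMP:MA9 was -2.11 (adjusted p = 0.0130).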

How the results depend on the processing

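The members gave 4 calls against normal cells and 2 in the normal steps, which became 11 and 6 with no fold threshold. Leaving out each sample gave 4 to 5 and 2 to 2 (5 without ST-HSC replicate 4 or STHSC:MA9 replicate 2 or 3, each adding Meis1 in STHSC:MA9), and the count between leukaemias was 0 under all 8 alternatives and all 19 omissions. The F test passed 1 member, and 2 with a pseudocount of 0.1. It passed 1 to 2 over single omissions, adding Pbx3 without STHSC:MA9 replicate 1, MPP:MA9 replicate 1, 4 or 5, CMP:MA9 replicate 1, 2 or 3 or GMP:MA9 replicate 2 or 4, and adding Pknox1 without GMP:MA9 replicate 5. The calls of Meis1 in GMP:MA9 and of Pbx3 in MPP:MA9, CMP:MA9 and GMP:MA9 passed by adjusted p with the same sign under all alternatives run. Over single member values, 2240 recomputed values kept their sign and their side of an adjusted p of 0.05, 26 passed it newly, 25 no longer passed it and 49 changed sign.

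The replicate number as a block left 60 of 64 values on their side, ended the adjusted p of Pbx3 in ST-HSC against MPP (log2 0.60, adjusted p = 0.0505) and changed the sign of Meis1 in STHSC:MA9 against MPP:MA9 (-0.15), Pknox1 in STHSC:MA9 against GMP:MA9 (-0.0412) and Pbx2 in CMP:MA9 against GMP:MA9 (-0.0437). It added the call of Meis1 in STHSC:MA9 against ST-HSC (-1.004, adjusted p = 0.0153), which made 5 calls against normal cells, changed no other call, and the cause was not tested. The sign changes all concerned differences that passed no test in the fits reported. With the correction for GC content and length they were Meis1 in STHSC:MA9 against MPP:MA9 (-0.0362, and -0.21 with the block) and in CMP:MA9 against GMP:MA9 (0.0328), Pbx3 in MPP:MA9 against GMP:MA9 (0.0533 with and without the block) and Pknox1 in STHSC:MA9 against GMP:MA9 (-0.0501 with the block). For Pbx2 they were STHSC:MA9 against CMP:MA9 (0.0388), CMP:MA9 against GMP:MA9 (-0.12, and -0.22 with the block), ST-HSC against MPP (0.11, and 0.18 with the block) and CMP against GMP (-0.12 with and without the block). Pknox1 in CMP against MEP was -0.0565 with median-ratio scaling and -0.14 with the correction, with or without the block. Without the granulocyte-rich libraries Pbx2 in STHSC:MA9 against ST-HSC was 0.15.

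Single omissions changed further signs. Pbx2 ranged from -0.14 to 0.0823 in STHSC:MA9 against ST-HSC, from -0.19 to 0.0174 in STHSC:MA9 against GMP:MA9, from -0.0427 to 0.17 in CMP:MA9 against GMP:MA9, from -0.00468 to 0.24 in LT-HSC against ST-HSC and from -0.10 to 0.0435 in CMP against MEP. Meis1 ranged from -0.21 to 0.36 in STHSC:MA9 against MPP:MA9 and from -0.23 to 0.15 in CMP:MA9 against GMP:MA9. Pknox1 ranged from -0.0413 to 0.17 in STHSC:MA9 against GMP:MA9 and from -0.17 to 0.0504 in CMP:MA9 against GMP:MA9. Pbx3 ranged from -0.0226 to 0.67 in MPP:MA9 against CMP:MA9, from -0.29 to 0.36 in MPP:MA9 against GMP:MA9 and from -0.61 to 0.00517 in CMP:MA9 against GMP:MA9. FPKM without counts leave the precision of low values, as of Meis2 and Meis3, unknown.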
